A study of Mus musculus with 6 samples.

Results

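The 46 genes described here make, fold and export the proteins of the secretory pathway. They cover translocation into the endoplasmic reticulum (ER), folding there, export in vesicles coated by coat protein complex II (COPII), and the signalling and degradation that respond to ER stress. They were listed by gene symbol, with earlier results of these data already known, so the list was not blind to the data. Each was represented by the brightest of the non-control probes whose transcript RefSeq assigns to that symbol, and all 46 were found among the 22911 genes with a named probe. Gene expression had been measured with 1-colour (Cy3) Agilent arrays on 3 kinds of sample from male mouse lung. Myofibroblasts came from bleomycin-treated lung and were sorted as CD49e+ Sca1- Lin- cells. Steady-state fibroblasts came from untreated lung and were sorted as CD140a+ Lin- cells. Lung homogenates, made from untreated lung, served as controls. Each group had 2 arrays. The design text gives 2 sets of 50000 cells a group, and 5.8 ng of total RNA was labelled per array. Bleomycin damages the lung and is used to induce fibrosis. The cell gate and the treatment changed together between the sorted groups, so they cannot be told apart. The labels give no strain or age. They are silent on whether different animals gave the 2 samples of a group, and a p-value here covers only the spread of those samples, possibly a technical one.

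Secreted and membrane proteins enter the ER through the Sec61 channel, helped by the TRAP complex, and signal peptidase removes their signal peptides. Inside, chaperones and disulfide isomerases fold them, and COPII vesicles carry folded cargo towards the Golgi. Long procollagen molecules need an enlarged COPII carrier, and fibroblasts are among the main collagen-secreting cells of the lung. When unfolded protein accumulates, the sensors Ern1 (IRE1 alpha), Atf6 and PERK switch on the unfolded protein response, which raises chaperones and degradation factors.

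Levels are given as relative signal, the processed signal of a probe divided by the 75th percentile of its array, and differences as log2 differences between group means. Probes well above background made up 65.5% to 73.4% of spots, no spot was saturated, and all 46 genes were well above background on all 6 arrays. With 2 arrays a group, every value has limited precision. Among the 46 genes the 2 fibroblast arrays lay furthest apart, with a median absolute log2 difference of 0.57, against 0.18 between the myofibroblast arrays and 0.10 between the homogenate arrays. Only the fibroblast arrays had genes over 2-fold apart (Sec61a1, Ssr2, Calr, Canx, Sdf2l1, Creb3l2 and Ddit3). All 6 myofibroblast markers, Acta2, Tagln, Cnn1, Postn, Cthrc1 and Lrrc15, were higher in myofibroblasts than in fibroblasts. Col1a1 reached a relative signal of 325 and 345 in myofibroblasts, against 86.7 and 38.0 in fibroblasts and 3.13 and 2.77 in homogenates. It was 1 of 8 fibroblast markers, of which 3 were called higher and 2 lower in myofibroblasts than in fibroblasts. Of all genes tested 9.22% and 8.02% were. Among the genes of the sort markers, Itga5 (CD49e) was called higher, at 4.01. Ly6a (Sca1) and Pdgfra (CD140a), the latter also 1 of the 8, were called lower, at -1.94 and -2.36. Markers of other cells also moved with the groups. The summed relative signal of 7 endothelial markers was 0.255 to 0.286 in myofibroblasts, 1.42 to 1.71 in fibroblasts and 69.2 to 71.3 in homogenates, and that of 9 epithelial markers was 12.7 to 18.2 in myofibroblasts, 74.0 to 123 in fibroblasts and 827 to 837 in homogenates. For 10 macrophage and leukocyte markers it was 176 to 185 in myofibroblasts, 176 to 193 in fibroblasts and 282 to 294 in homogenates. Most of it came from Itgam and Csf1r, which were not called in any comparison, and Ptprc was well above background on 1 of the 4 sorted arrays. Of the 7 tested between the sorted groups, 1 was called higher in myofibroblasts and 0 lower. Against homogenates 8 of the 10 were called lower in myofibroblasts and 8 in fibroblasts, where 15% and 11.8% of all genes tested were. For 8 genes of dividing cells the summed relative signal was 49.5 to 53.6 in myofibroblasts, 2.87 to 3.17 in fibroblasts and 8.44 to 9.16 in homogenates. Of the 8, 7 were called higher in myofibroblasts than in fibroblasts. For 5 smooth muscle and pericyte markers it was 36.5 to 47.4 in myofibroblasts, 1.72 to 2.13 in fibroblasts and 9.45 to 12.1 in homogenates. Of the 4 tested between the sorted groups Des, Cspg4 and Myh11 were called higher in myofibroblasts, with a median log2 difference of 2.68 for the 4, and Rgs5 was well above background on 1 of 2 arrays in each sorted group. For 4 mesothelial markers it was 0.183 to 0.447 in myofibroblasts, 0.355 to 0.939 in fibroblasts and 3.09 to 3.21 in homogenates. Plasma cells, which have an extensive ER, were represented by 9 plasma and B cell markers with a sum of 4.31 to 4.33 in myofibroblasts, 0.425 to 0.443 in fibroblasts and 5.83 to 5.87 in homogenates. Of these, Sdc1 alone gave 4.02 and 3.85 in myofibroblasts, and Jchain, Cd79b, Ms4a1 and Tnfrsf17 were not well above background on any sorted array. The part of dividing cells and of the other cell types in the differences below was not tested. In samples of bulk RNA, fewer cells of a type and less RNA per cell cannot be told apart.

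Between myofibroblasts and fibroblasts, ER and export genes were more often higher than lower in myofibroblasts. Of the 46 genes, 9 were higher in myofibroblasts (limma, adjusted p under 0.05 over the 16005 genes tested), and 9.22% of all genes tested were called higher (7.91% of the 13998 genes that, like these 46, were well above background on all 6 arrays). None of the 46 was called lower, against 8.02% of all genes tested (7.09% of the 13998), although Mia3 and Dnajc3 were lower at an unadjusted p under 0.05. The split moved with the scaling, to 6 higher and 2 lower (Dnajc3 and Mia3) under the constants of the authors' deposited table, 5 higher and 1 lower (Dnajc3) under quantile normalization, 17 higher and 1 lower (Dnajc3) with normexp background correction, and 13 higher and 0 lower by limma with median centring. In the same order, the calls among all 16005 genes were 986 higher and 2901 lower, 1186 and 1353, 1847 and 1398, and 1743 and 956. In the main setting the 9 genes were the translocon subunit Sec61b, the TRAP subunit Ssr4, the signal peptidase subunit Spcs1, the COPII genes Sec13, Sec23a and Sec24d, the isomerases Pdia4 and Pdia5, and the transcription factor Creb3l2. The median log2 difference of the 46 genes was 0.63 and that of all genes tested was -0.06. On both myofibroblast arrays 28 of the 46 genes read higher than on both fibroblast arrays and 4 read lower, against 30.3% and 32.7% of all genes tested. The plot of values by array shows the 3 groups gene by gene. Pdia5 kept its call without any 1 array. Each of the other 8 lost it without either myofibroblast array or without either homogenate array, at adjusted p up to 0.174 for Spcs1 and up to 0.0926 for Sec13, so that Pdia5 alone was called in each of those 4 fits. In those fits the share called was lower among the 46 genes than among all genes tested. Without fibroblast array 2 calls rose among the 46 genes and among all genes alike, and some of the 46 were then called lower. The median of the 46 genes lay above that of all genes by 0.69. Median centring and the authors' deposited table apply 1 constant per array, which shifts every gene alike, so they cannot change that gap. It was 0.65 with normexp and 0.37 under quantile normalization, which can change it. Under the constants of the authors' deposited table the median of all genes was -0.47 and that of the 46 genes was 0.22. Under quantile normalization the 46 genes had a median of 0.28 and 28 of them lay above 0, against 36 in the main scaling.

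**Figure D1:**
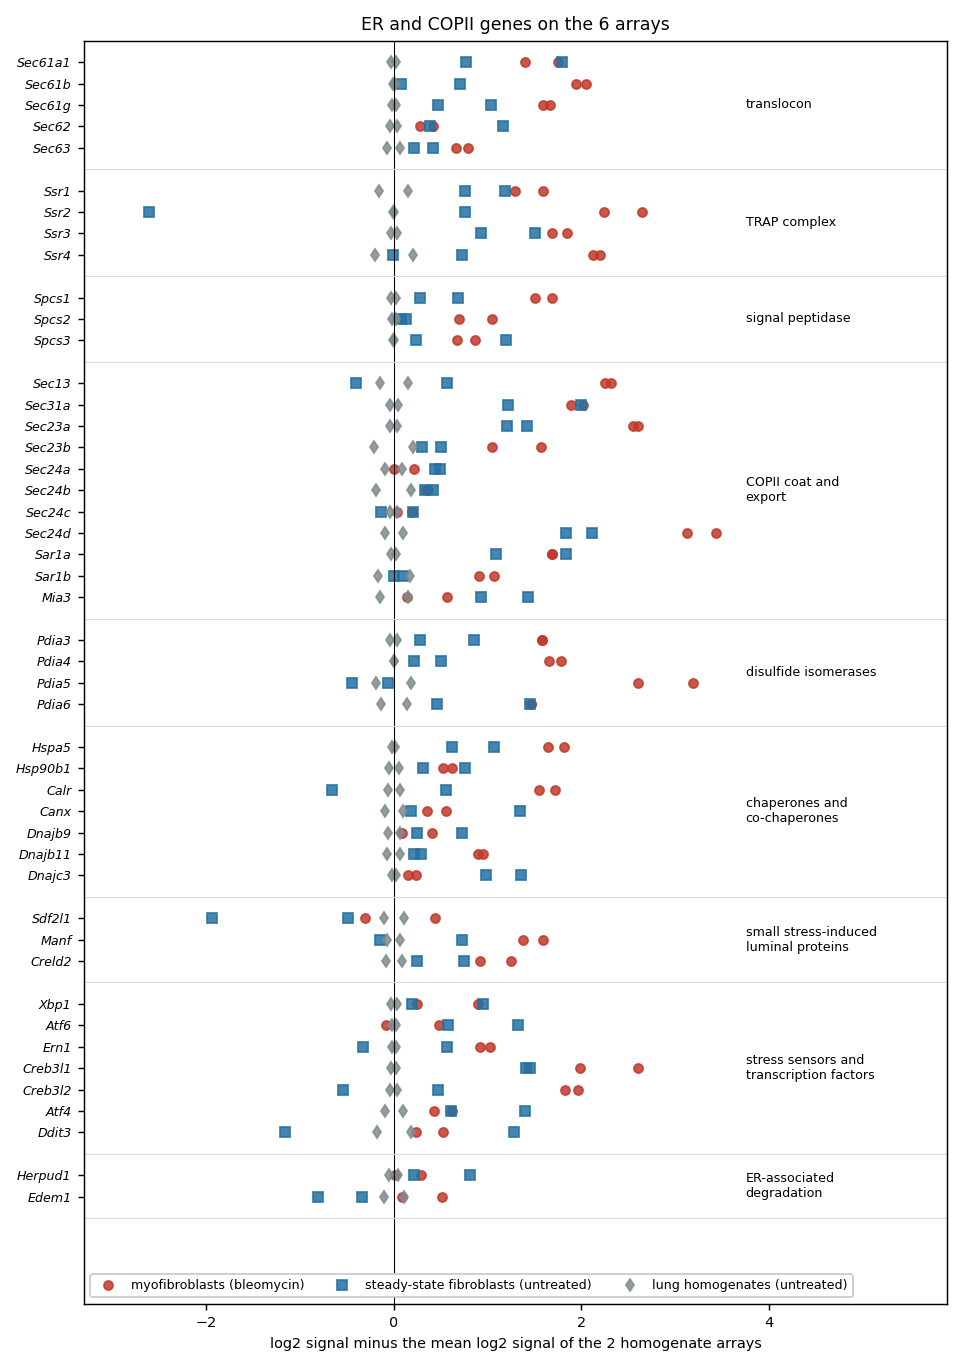
Log2 signal of the 46 genes on each array, minus the gene's mean log2 signal on the 2 homogenate arrays, with genes grouped by role from top to bottom. Circles are the 2 myofibroblast arrays, squares the 2 fibroblast arrays and diamonds the 2 homogenate arrays. The myofibroblast points of Sec24d, Pdia5 and Sec23a lie furthest to the right of their homogenate points, and the fibroblast points of Ssr2 lie 3.37 log2 units apart.

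The promoters of 40 of these genes could be read from RefSeq's windows on the mouse assembly GRCm38.p6, and they divide the genes in a way that the signal values did not use. The ER stress element, ERSE, is made of CCAAT and CCACG with 9 bases of any kind between them, and is the sequence through which ATF6 is known to act. Searched on both strands of the 250 bases before the gene start, it was present in 7 of the 40 windows (17.5%), against 35 of 27025 genes (0.130%). The 7 genes were Hspa5, Hsp90b1, Calr, Canx, Dnajc3, Creld2 and Pdia6, mostly chaperones, and they are counted among the 35. The list was made to hold genes of folding and ER stress, so this excess is not independent of how it was chosen. Its variant ERSE-II, made of ATTGG and CCACG with 1 base between them, was present in Herpud1 alone among the 40 genes, and in 10 of the 27025. The core of the unfolded protein response element, TGACGTGG, was present in Sec24d alone among the 40 genes, and in 163 of the 27025 (0.603%). Its inner letters ACGTG, which that core contains, stood in 19 of the 40 windows (47.5%) and in 18.5% of all windows. A match of letters shows that the element is present and not that a factor binds there. The windows below are shown because they hold these elements, written 5′ to 3′ on the gene's strand with the element in capitals. Those of Hspa5 and Dnajc3 carry ERSE as spelled, that of Calr carries its reverse complement, that of Herpud1 carries ERSE-II, and that of Sec24d carries the unfolded protein response core.
Hspa5, chr2:34772015-34772053, plus strand: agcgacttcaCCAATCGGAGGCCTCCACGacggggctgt
Dnajc3, chr14:118937817-118937855, plus strand: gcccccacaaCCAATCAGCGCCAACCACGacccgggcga
Calr, chr8:84847065-84847103, minus strand: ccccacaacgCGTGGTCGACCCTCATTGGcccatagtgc
Herpud1, chr8:94386367-94386397, plus strand: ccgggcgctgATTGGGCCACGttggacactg
Sec24d, chr3:123267460-123267487, plus strand: cccgggcgccTGACGTGGcactagcaac

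None of the 7 genes with ERSE was called between myofibroblasts and fibroblasts by limma. Of all genes tested 9.22% were called higher and 8.02% lower, so 0 calls in 7 genes is near those shares. At an unadjusted p under 0.05, Hspa5 and Calr read higher in myofibroblasts and Dnajc3 lower. Dnajc3 was called lower under quantile normalization, with normexp and with the authors' deposited table. The log2 differences of the 7 ran from -0.97 for Dnajc3 to 1.69 for Calr with a median of 0.50. Among the 33 genes whose window lacks the element, 9 were called higher and the median was 0.77. Against homogenates, 4 of the 7 genes with ERSE and 18 of the 33 without it were called higher in myofibroblasts. Of all genes tested there, 11.9% were called higher. The difference between the 2 sets was not tested. The remaining 6 genes were Sec61a1, Ssr2, Spcs3, Manf, Atf6 and Creb3l1, and no window was used for them. The plot of differences by promoter element shows both sets.

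**Figure D2:**
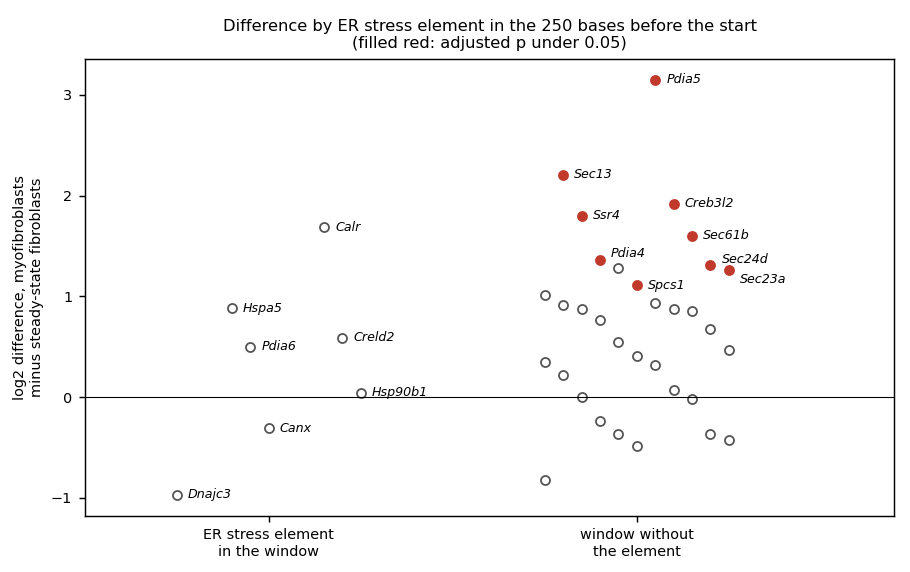
Log2 difference between myofibroblasts and steady-state fibroblasts for the 40 genes with a promoter window, split by whether the 250 bases before the start hold ERSE. Each point is 1 gene and filled red points were called. All 9 called genes stand among the 33 without the element, and the 7 with it run from -0.97 to 1.69. Of all genes tested, 9.22% were called higher, and the 2 sets were not compared by a test.

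Genes of translocation were higher in myofibroblasts for 1 subunit of each complex. Sec61b encodes the small beta subunit of the Sec61 channel. It read 16.3 and 17.6 in relative signal in myofibroblasts, against 6.96 and 4.48 in fibroblasts and 4.29 and 4.24 in homogenates. Its myofibroblast values lay above both other groups, and the log2 difference from fibroblasts was 1.60 ± 0.30 (SE, n = 2 arrays per group here and below, limma adjusted p = 0.0235). Each SE rests on 1 spread shared by the 3 groups, although the fibroblast arrays lay furthest apart. With the arrays of the 2 sorted groups alone, 2 of the 46 genes were called, and Sec61b was not among them. Among the 5 translocon genes the others were not called. Sec61a1, the pore-forming subunit, differed by 0.29, Sec61g, the gamma subunit, by 0.87, and the accessory proteins Sec62 and Sec63 by -0.42 and 0.41. Their median was 0.41, and -0.01 under the constants of the authors' deposited table. Sec61a1 differed between its probes, since another probe gave 2.54 (adjusted p = 0.0483 over all named probes), and the other probe of Sec61b gave 2.59.

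The TRAP complex, which sits beside the channel and aids the insertion of some signal sequences, had all 4 subunits higher on both myofibroblast arrays than on both fibroblast arrays. Ssr4, its delta subunit, read 12.5 and 13.1 in myofibroblasts, against 2.85 and 4.74 in fibroblasts and 3.29 and 2.49 in homogenates. Fibroblasts and homogenates overlapped, myofibroblasts stood above both, and the log2 difference from fibroblasts was 1.80 ± 0.34 (limma adjusted p = 0.0243). Ssr2, the beta subunit, had the largest difference of all 46 genes, 3.37 ± 1.04, yet was not called (adjusted p = 0.0796). It read 19.8 and 26.3 in myofibroblasts, against 0.688 and 7.11 in fibroblasts and 4.22 and 4.19 in homogenates. The 2 fibroblast values lay on either side of the homogenate values, and a further probe of Ssr2 gave a smaller difference of 1.02 (adjusted p = 0.0884). Ssr1 and Ssr3 differed by 0.47 and 0.55 and were not called.

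Signal peptidase had 1 of 3 subunits called. Spcs1, an accessory subunit, read 43.5 and 49.4 in myofibroblasts, against 24.7 and 18.7 in fibroblasts and 15.1 and 15.7 in homogenates. The log2 difference from fibroblasts was 1.11 ± 0.26 (limma adjusted p = 0.0433). This call was also lost under quantile normalization, the authors' deposited table, array weights and a replicate block. It was lost as well with either other filter on dim probes and with the probe of largest spread. Spcs2 differed by 0.77 and Spcs3 by 0.06, and neither was called.

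In the COPII coat, myofibroblasts had higher signal for Sec23a of the inner layer, Sec13 of the outer cage and 1 of the 4 Sec24 cargo adaptors. The small GTPases Sar1a and Sar1b start the coat, Sec23 and Sec24 form its inner layer and select cargo, and Sec13 and Sec31a form its outer cage. Of the 11 genes 3 were called higher than in fibroblasts, with a median log2 difference of 0.35. That median was below 0 under quantile normalization (-0.10) and under the constants of the authors' deposited table (-0.06). Sec13 read 1.81 and 1.89 in myofibroblasts, against 0.287 and 0.560 in fibroblasts and 0.342 and 0.421 in homogenates. Fibroblasts and homogenates overlapped, myofibroblasts stood clear of both, and the difference from fibroblasts was 2.21 ± 0.38 (limma adjusted p = 0.0190). Sec31a, its partner in the cage, was not called, at 0.35.

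Sec23a and Sec24d formed a graded series in which myofibroblasts were highest and homogenates lowest. Sec23a read 5.36 and 5.18 in myofibroblasts, against 2.03 and 2.37 in fibroblasts and 0.906 and 0.861 in homogenates. Loss of SEC23A function causes a skeletal disorder with retained collagen in humans. Its log2 difference was 1.26 ± 0.24 between myofibroblasts and fibroblasts (limma adjusted p = 0.0242) and 1.31 ± 0.24 between fibroblasts and homogenates (adjusted p = 0.0155), although its other probe gave 0.49 for myofibroblasts over fibroblasts (adjusted p = 0.290). Sec24d, a cargo adaptor that procollagen export needs in fish and humans, read 9.87 and 12.3 in myofibroblasts, against 4.89 and 4.03 in fibroblasts and 1.21 and 1.06 in homogenates. Its log2 difference was 1.31 ± 0.27 between myofibroblasts and fibroblasts (adjusted p = 0.0292) and 1.97 ± 0.27 between fibroblasts and homogenates (adjusted p = 0.00571). The call between the sorted groups was also lost under quantile normalization, the authors' deposited table, array weights and a replicate block. The difference of 3.28 ± 0.27 between myofibroblasts and homogenates was the largest of the 46 genes in that comparison (adjusted p = 0.000928).

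The other Sec24 adaptors were not called. Between myofibroblasts and fibroblasts Sec24a differed by -0.36, Sec24b by -0.02 and Sec24c by 0.08, and between myofibroblasts and homogenates by 0.11, 0.35 and 0.11, with none called. A ratio of 2 probes within an array does not depend on scaling by 1 constant per array. Quantile normalization and normexp can change it, and ratios were read in the main scaling only. The log2 ratio of Sec24d to the mean of Sec24a, Sec24b and Sec24c, set to 0 at the homogenate mean, was 2.92 and 3.26 in myofibroblasts, 1.74 and 1.62 in fibroblasts and 0.08 and -0.08 in homogenates. The 3 groups did not overlap. The ratio of Sec23a to its paralogue Sec23b on the same footing was 1.55 and 0.98 in myofibroblasts, 0.70 and 1.12 in fibroblasts and 0.24 and -0.24 in homogenates, where the sorted groups overlapped. Such ratios show unequal change and no test was made of them.

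**Figure D3:**
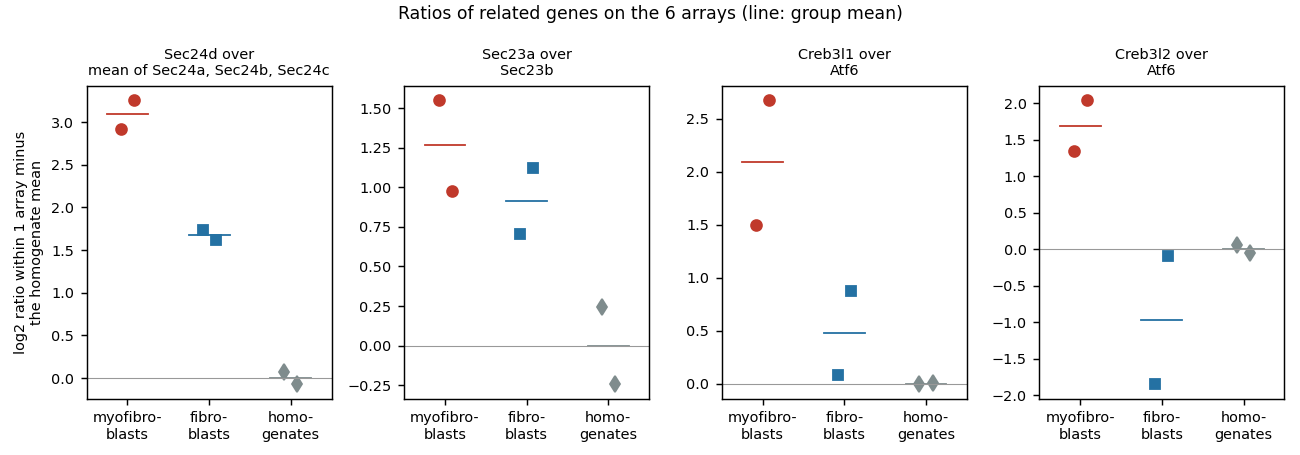
Log2 ratios of related genes within each array, minus the mean ratio of the 2 homogenate arrays, for Sec24d over the other Sec24 genes, Sec23a over Sec23b, and Creb3l1 and Creb3l2 over Atf6. Each point is 1 array and lines are group means. The 3 groups stand apart for Sec24d, and only the myofibroblast arrays stand above the homogenate arrays for Creb3l2.

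The remaining export genes were not called between the sorted groups. Sar1a differed by 0.22 and Sar1b by 0.93, and Sec23b by 0.91. Another probe of Sar1a gave 1.80 (adjusted p = 0.0263), so the 2 probes disagree in call. Mia3 (TANGO1), the receptor that loads procollagen into COPII carriers, read 1.52 and 1.13 in myofibroblasts, against 2.75 and 1.95 in fibroblasts and 1.14 and 0.924 in homogenates. Its log2 difference between the sorted groups was -0.82 ± 0.31 (limma adjusted p = 0.125), and it was called at -1.23 (adjusted p = 0.0452) under the constants of the authors' deposited table.

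Disulfide isomerases, which form and rearrange disulfide bonds in folding proteins, were higher in myofibroblasts for 2 of 4 genes, and all 4 read higher on both myofibroblast arrays than on both fibroblast arrays. Pdia5 read 2.15 and 3.23 in myofibroblasts, against 0.260 and 0.340 in fibroblasts and 0.311 and 0.403 in homogenates. The 4 other arrays overlapped at a low level and myofibroblasts stood far above them. The difference was 3.15 ± 0.33 from fibroblasts (limma adjusted p = 0.00500) and 2.90 ± 0.33 from homogenates (adjusted p = 0.00281), which made Pdia5 the only 1 of the 46 genes to keep both calls under all 18 alternative settings (thresholds aside). Pdia4 read 7.74 and 8.46 in myofibroblasts, against 2.84 and 3.48 in fibroblasts and 2.46 and 2.46 in homogenates. Its difference from fibroblasts was 1.36 ± 0.25 (adjusted p = 0.0219). Pdia3, which works with calnexin and calreticulin on glycoproteins, and Pdia6 differed by 1.01 and 0.50 and were not called.

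The chaperones had a smaller median difference than the isomerases, and the 2 classes were not compared by a test. Their summed relative signal was 302 to 325 in myofibroblasts, 241 to 290 in fibroblasts and 169 to 174 in homogenates. By limma 0 of the 7 chaperones were called between the sorted groups, near the 9.22% called higher and 8.02% lower among all genes tested. At an unadjusted p under 0.05, 3 were higher and 1 lower, and the median log2 difference was 0.04. Under quantile normalization the median was -0.19. Calr, calreticulin, which holds glycoproteins during folding, read 25.2 and 28.4 in myofibroblasts, against 5.47 and 12.7 in fibroblasts and 8.25 and 9.02 in homogenates. The difference from fibroblasts was 1.69 ± 0.43 (adjusted p = 0.0523), with fibroblasts on both sides of the homogenates. Hspa5 (BiP), the main ER Hsp70 chaperone, read 98.3 and 87.2 in myofibroblasts, against 42.9 and 58.9 in fibroblasts and 28.3 and 27.7 in homogenates. The 3 groups did not overlap, but the difference of 0.88 ± 0.27 between the sorted groups was not called (adjusted p = 0.0784).

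Hsp90b1 (GRP94), the ER member of the Hsp90 family, and Canx, the membrane-bound partner of calreticulin, differed by 0.04 and -0.31 between the sorted groups. The Hsp40 co-chaperones of BiP went different ways, with Dnajb11 at 0.67, Dnajb9 at -0.24 and Dnajc3 at -0.97. Dnajc3 (P58IPK) read 7.22 and 7.65 in myofibroblasts, against 16.6 and 12.8 in fibroblasts and 6.41 and 6.58 in homogenates. Fibroblasts alone were high. The difference of -0.97 ± 0.26 from fibroblasts was not called in the main setting (adjusted p = 0.0553) and was called lower under quantile normalization at -1.40 (adjusted p = 0.0242), with normexp at -0.97 (adjusted p = 0.0200) and with the authors' deposited table at -1.38 (adjusted p = 0.0196), but not with median centring at -0.83 (adjusted p = 0.107). Between fibroblasts and homogenates it was called at 1.16 ± 0.26 (adjusted p = 0.0287).

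Among the stress sensors and transcription factors, 1 of 7 was called between the sorted groups, with a median difference of 0.32, which was -0.09 under the constants of the authors' deposited table. Creb3l1 (OASIS) and Creb3l2 (BBF2H7) are membrane-bound relatives of Atf6. In mice Creb3l1 is tied to collagen synthesis in bone, and Creb3l2 to COPII-dependent secretion of cartilage matrix. Creb3l2 read 6.42 and 7.08 in myofibroblasts, against 1.25 and 2.53 in fibroblasts and 1.87 and 1.77 in homogenates. Myofibroblasts stood above both other groups, which overlapped, and the difference from fibroblasts was 1.92 ± 0.38 (limma adjusted p = 0.0273). Creb3l1 read 6.70 and 10.3 in myofibroblasts, against 4.50 and 4.65 in fibroblasts and 1.67 and 1.73 in homogenates. It fell in 3 separate levels, with a difference of 0.86 ± 0.29 between the sorted groups that was not called (adjusted p = 0.0985) and 1.43 ± 0.29 between fibroblasts and homogenates that was (adjusted p = 0.0236). Set to 0 at the homogenate mean, the log2 ratio of Creb3l1 to Atf6 within an array was 1.50 and 2.68 in myofibroblasts, 0.09 and 0.88 in fibroblasts and -0.01 and 0.01 in homogenates. The same ratio for Creb3l2 was 1.34 and 2.04 in myofibroblasts, -1.85 and -0.10 in fibroblasts and 0.06 and -0.06 in homogenates. Myofibroblasts were highest in both ratios, and no test was made of them.

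The classical markers of the unfolded protein response were not called between the sorted groups. Of all genes tested 9.22% were called higher and 8.02% lower, so 0 calls among so few genes is near those shares. Xbp1, whose mRNA is spliced by IRE1, read 23.9 and 15.3 in myofibroblasts, against 24.9 and 14.7 in fibroblasts and 13.1 and 12.6 in homogenates. The sorted groups overlapped and differed by 0.00 ± 0.38 (limma adjusted p = 0.998). These probes measure total Xbp1 mRNA only, so splicing was not measured. Atf4, the factor translated when PERK acts, differed by -0.48 ± 0.34, and Atf6 and the sensor Ern1 by -0.75 and 0.86, with none called. Ddit3 (CHOP), a proapoptotic target of Atf4, read 0.532 and 0.648 in myofibroblasts, against 0.202 and 1.09 in fibroblasts and 0.511 and 0.397 in homogenates. The 2 fibroblast arrays enclosed all others, and its difference was 0.32 ± 0.78. Without fibroblast array 2 it was 1.54 (adjusted p = 0.0238), and without fibroblast array 1 it was -0.90 (adjusted p = 0.0992).

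Small luminal proteins induced by ER stress were not called between the sorted groups (limma, 0 of 3, and Manf alone at an unadjusted p under 0.05). That is near the shares of all genes tested, 9.22% higher and 8.02% lower. All 3 read higher on both myofibroblast arrays than on both fibroblast arrays, and their median log2 difference was 1.19. Sdf2l1, a component of an ER chaperone complex, read 11.4 and 19.1 in myofibroblasts, against 3.68 and 10.1 in fibroblasts and 15.2 and 13.1 in homogenates, a difference of 1.28 ± 0.54 from fibroblasts (adjusted p = 0.154). Manf, a secreted protein, and Creld2 differed by 1.19 and 0.59. In ER-associated degradation, which returns misfolded proteins to the cytosol, 0 of 2 genes were called, also near those shares. Edem1 alone passed at an unadjusted p under 0.05. Edem1, which marks misfolded glycoproteins, read 2.22 and 1.64 in myofibroblasts, against 0.885 and 1.23 in fibroblasts and 1.44 and 1.67 in homogenates. Its difference from fibroblasts was 0.87 ± 0.30 (adjusted p = 0.104). Herpud1, the bearer of ERSE-II, differed by -0.36. Genes of cell handling and heat shock, which tissue dissociation can raise, had a summed relative signal of 891 to 920 in myofibroblasts, 1144 to 1401 in fibroblasts and 625 to 647 in homogenates for 9 genes. By limma 0 of the 9 were called between the sorted groups, where 9.22% of all genes tested were called higher and 8.02% lower, and 3 passed at an unadjusted p under 0.05. Over homogenates, 2 of the 9 were called higher in myofibroblasts (median 0.49) and 5 in fibroblasts (median 1.21). Of all genes tested, 11.9% and 8.09% were called higher in those comparisons. The part of handling in the stress genes and in the differences from homogenates was not tested.

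Against homogenates, myofibroblasts showed the secretory genes higher far more widely. All 46 log2 differences were above 0, with a median of 1.20 and a range from 0.06 to 3.28, while the median of all 17162 genes tested was -0.01. By limma 25 of the 46 genes were called higher, against 11.9% of all genes tested and 12.4% of the 13998 well above background on all 6 arrays. In the other direction 0 were called or passed at an unadjusted p under 0.05, against 15% and 9.18% called. All 4 isomerases were called, as were 3 of 5 translocon genes, 3 of 4 TRAP genes, 1 of 3 signal peptidase genes, 7 of 11 COPII genes, 3 of 7 chaperones, 2 of 3 small luminal proteins and 2 of 7 sensors and factors. Neither degradation gene was. Hspa5 was higher by 1.73 ± 0.27 (adjusted p = 0.00850), Sec61g by 1.62 ± 0.28 (adjusted p = 0.0120), Sec31a by 1.95 ± 0.33 (adjusted p = 0.0107) and Creb3l1 by 2.29 ± 0.29 (adjusted p = 0.00423). Herpud1, Dnajb9, Dnajc3 and Sdf2l1 stood near the homogenate level, at 0.15, 0.25, 0.19 and 0.06. The count was 14 under quantile normalization and 16 under the constants of the authors' deposited table, and 35 and 33 differences were then above 0. Without homogenate array 1 it was 5, without homogenate array 2 it was 4, and without myofibroblast array 1 or 2 it was 9 or 8. Both homogenates were hybridised in a slide row of their own, and that row cannot be told apart from the kind of sample.

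Fibroblasts exceeded homogenates in fewer of these genes. By limma 7 of 46 were called higher, against 8.09% of the 17062 genes tested and 8.64% of the 13998 well above background on all 6 arrays. In the other direction 0 were called or passed at an unadjusted p under 0.05, against 11.8% and 6.14% called. The median difference was 0.49 and that of all genes tested was 0.03. Export genes made up 4 of the 7, with Sec24d and Sec23a as given above, Sec31a at 1.61 ± 0.33 (adjusted p = 0.0232) and Sar1a at 1.46 ± 0.32 (adjusted p = 0.0281). Ssr3, the gamma subunit of TRAP, was higher by 1.22 ± 0.29 (adjusted p = 0.0378), and Dnajc3 and Creb3l1 completed the list. No translocon gene, signal peptidase gene or isomerase was called. Calr, Pdia5, Creb3l2 and Sec13 were close to the homogenate level, at -0.05, -0.25, -0.03 and 0.08. Without homogenate array 1 the count was 1 and without homogenate array 2 it was 0, without either myofibroblast array it was 3, and without fibroblast array 2 it was 20, of which 17 were higher. The comparisons share arrays with one another, so their counts are not independent.

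**Figure D4:**
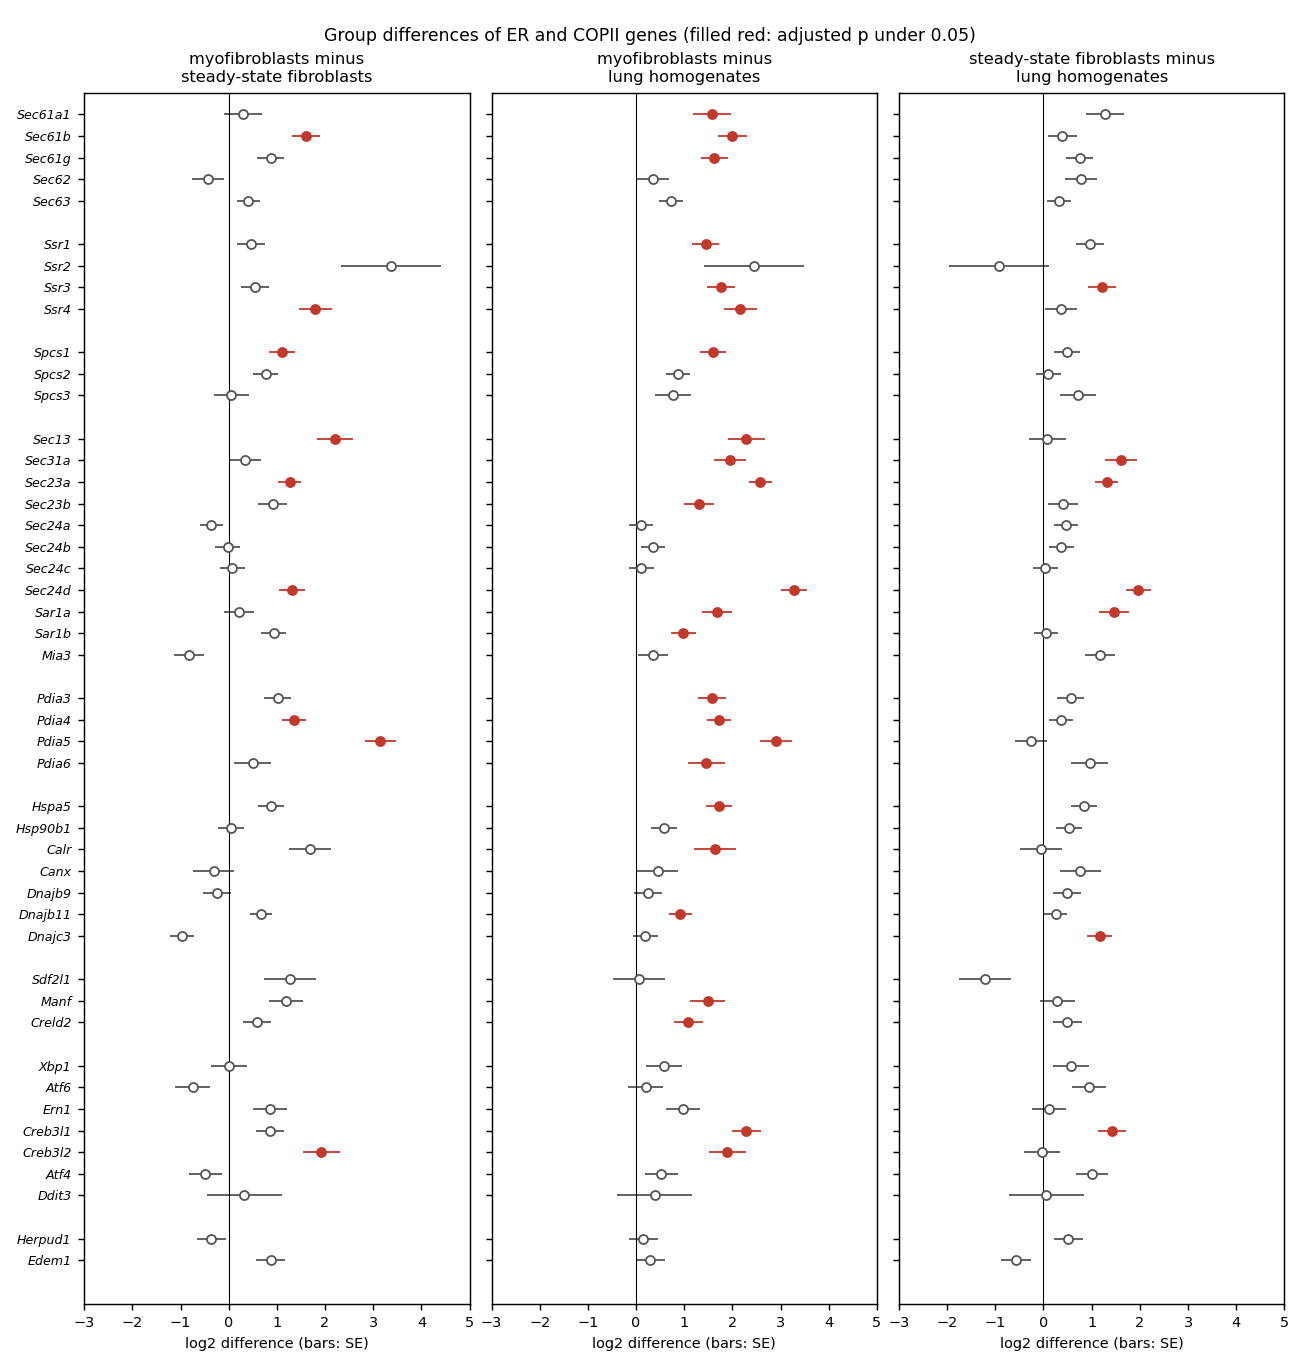
Log2 differences of the 46 genes in the 3 comparisons, with limma's standard error as bars and filled red points for adjusted p under 0.05. From left to right the panels hold 9, 25 and 7 called genes, all to the right of 0, and all 46 points of the middle panel lie above 0.

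By the order of group means, the 46 genes fell into 3 patterns. In 30 genes myofibroblasts were highest and homogenates lowest. In 10 genes fibroblasts were highest and homogenates lowest (among them Dnajc3, Mia3, Canx, Atf4 and Atf6). In 6 genes myofibroblasts were highest and fibroblasts lowest, among them Pdia5, Calr, Ssr2 and Sdf2l1. No gene had homogenates on top in the main scaling or with median centring. Homogenates were highest for Sdf2l1 under quantile normalization, normexp and the authors' deposited table. They were also highest for Sec24c under quantile normalization and the authors' table, and for Ddit3 and Edem1 under the authors' table. Many neighbours in these orders do not differ beyond their spread, as for Xbp1 and Hsp90b1 between the sorted groups and Sdf2l1 between myofibroblasts and homogenates.

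Of the 46 genes 22 had 1 probe and 24 had several, 76 probes in all. Among the 29 other probes tested between myofibroblasts and fibroblasts, 21 gave the sign of the brightest probe and 3 were called, all higher (adjusted over all named probes). Between myofibroblasts and homogenates 28 of 29 gave the same sign and 11 were called higher. Between fibroblasts and homogenates 20 of 29 did and 1 was called. The 3 called between the sorted groups belong to Sec61a1, Sec61b and Sar1a.

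The surrounding secretory pathway was read from 7 further lists of 83 genes, of which 80 were tested. Between myofibroblasts and fibroblasts 11 were called higher and 2 lower, against 9.22% and 8.02% of all genes tested. The median was 0.52, against -0.06 for all genes tested. Between myofibroblasts and homogenates 31 were higher and 2 lower, against 11.9% and 15%, with a median of 1.10 against -0.01. Between fibroblasts and homogenates 14 were higher and 2 lower, against 8.09% and 11.8%, with a median of 0.69 against 0.03. Of the genes called between the sorted groups, Chac1 and Asns kept their call without any 1 array, Vldlr lost it without myofibroblast array 1 (adjusted p = 0.0597), and each of the other 10 lost it without either myofibroblast array and without either homogenate array. In all, 2 were then called without myofibroblast array 1, 3 without myofibroblast array 2 or without either homogenate array, 21 without fibroblast array 1 and 35 without fibroblast array 2. In the sorted comparison the called genes came from every list but 1, since 0 of 10 tested genes of further ER-associated degradation were called by limma and 2 passed at an unadjusted p under 0.05. The signal recognition particle, which brings ribosomes to the ER, had 2 of 7 called, with Srp68 at 1.92. The oligosaccharyltransferase, which attaches glycans, had 1 of 9, Ostc at 1.90. The COPI coat, which returns vesicles from the Golgi, had 2 of 9, Copz2 at 1.46 and Copg1 at 1.19. Of the receptors and exit factors 2 of 14 were called, Kdelr2 at 2.11 and Kdelr3 at 1.56, which retrieve escaped ER proteins.

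Folding factors outside the 46 genes had 1 of 18 called higher and 1 lower, no more than the 9.22% and 8.02% of all genes tested. P4hb, which is both a disulfide isomerase and the beta subunit of collagen prolyl 4-hydroxylase, read 33.9 and 37.7 in myofibroblasts, against 3.17 and 11.4 in fibroblasts and 6.07 and 5.92 in homogenates. The difference from fibroblasts was 2.57 ± 0.60 (limma adjusted p = 0.0415). Ero1b, an ER oxidase, was not well above background in myofibroblasts. It was at least 2.54-fold lower there than in fibroblasts (adjusted p = 0.0382), where a bound takes the lowest signal among probes well above background on each array in place of the dim values.

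Targets of the integrated stress response, the programme run by Atf4, split in the sorted comparison. Of the 13, 3 were called higher and 1 lower, against 9.22% and 8.02% of all genes tested, with a median of -0.14. Asns, asparagine synthetase, read 2.27 and 2.19 in myofibroblasts, against 0.214 and 0.154 in fibroblasts and 0.765 and 0.798 in homogenates, a difference of 3.62 ± 0.27 from fibroblasts (limma adjusted p = 0.00235). Chac1, a glutathione-degrading enzyme, was not well above background in fibroblasts, was at least 3.60-fold higher in myofibroblasts (adjusted p = 0.00178), and differed from homogenates by -0.05. Nupr1 was higher by 1.32. Vldlr, a lipoprotein receptor, read 1.40 and 2.07 in myofibroblasts, against 10.8 and 7.47 in fibroblasts and 1.29 and 0.961 in homogenates, a difference of -2.40 ± 0.35 from fibroblasts (adjusted p = 0.0124). Other genes of the list, Trib3 at 0.36, Atf3 at -0.14 and Ppp1r15a at -0.75, were not called.

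**Figure D5:**
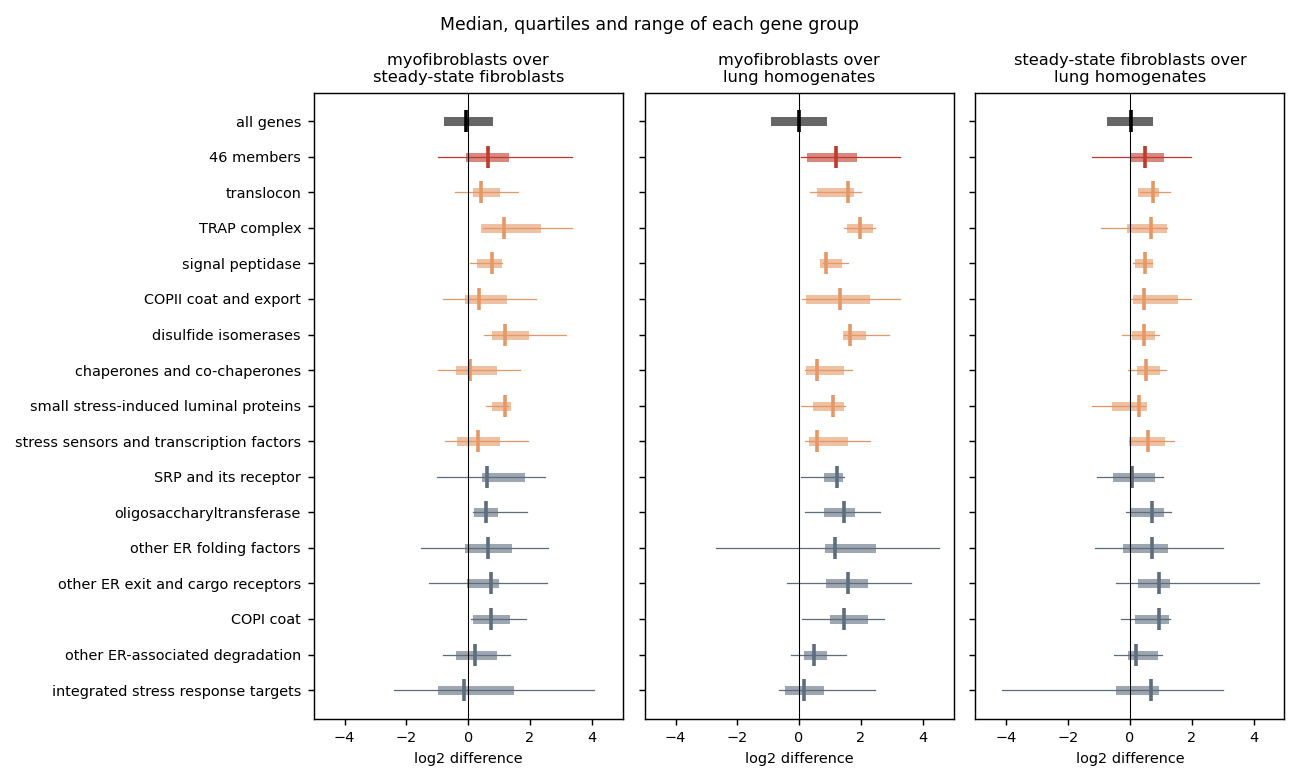
Median (tick), quartiles (thick bar) and range (thin line) of the log2 differences of the 46 genes, of their roles and of 7 further secretory pathway lists in the 3 comparisons, with all genes tested at the top, whose range is not drawn. The 2 genes of ER-associated degradation are left out. In the left panel the isomerases and the small luminal proteins both sit at a median of 1.19 and the chaperones at 0.04.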

How the data were processed

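Spot intensity values came from the deposited scanner files, written by Agilent Feature Extraction 12.0.3.1 per the file headers. They had background subtraction and detrending within each array and no scaling between arrays. The table of normalized intensity values that the authors also deposited equals the processed signal times 1 constant per array, by a method the sources used here do not give. Groups and replicate numbers came from the labels. The processed signal was divided by the array's 75th percentile and taken to log2. That percentile lay between 224 and 282. Outlier spots (0.175%) were dropped, and repeated spots were averaged. Transcript accessions in the files were matched to RefSeq without versions. Of 56605 probes 32994 were named, and the brightest probe on average represented its gene.

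A gene was tested when both arrays of 1 or both groups compared had it well above background. Differences were tested two-sided with limma 3.58.1 in R 4.3.3, all 6 arrays in 1 fit of 3 groups (3 residual degrees of freedom, 5.57 with the prior), and adjusted by Benjamini-Hochberg over all genes tested. A difference was called at adjusted p under 0.05. The fit was tested on simulated data in which each gene had 1 spread on all 6 arrays, so the wider spread of the fibroblast arrays was not simulated. All arrays came from 1 slide and 1 scan. The plan named the mean spot signal for normexp, and the median was used.

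The 46 genes, the further lists and the markers were chosen with earlier results of these data known. Values on every array are given for the genes called between the sorted groups, for the largest difference in each role, and for the 3 largest called differences each way in the further lists, which add 1 gene from each list by its difference. Col1a1, Mia3, Hspa5, Dnajc3, Creb3l1, Xbp1 and Ddit3 were added after their values were seen. The plan's rule for promoters, called genes with ERSE, selected none, so promoters are shown by element. No protein sequence was used. Srpra and Ctage5 had no probe under that name, and Derl3 was too dim to test.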

Additional observations from a re-analysis of the deposited data

How the results depend on the processing

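Counts are given in the order myofibroblasts over fibroblasts, myofibroblasts over homogenates and fibroblasts over homogenates, with main values of 9, 25 and 7 for the 46 genes, 2758, 4613 and 3392 for all genes and 13, 33 and 16 for the further lists. Leaving out each array in turn gave 1 to 20, 4 to 30 and 0 to 20 for the 46 genes, 1030 to 5738, 1837 to 7212 and 1544 to 6159 for all genes, and 2 to 35, 8 to 55 and 4 to 46 for the further lists. Where an array was left out, the lone sample of its group was taken to vary like the others.

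In myofibroblasts over fibroblasts the 46 genes gave 18 calls with normexp, 17 with the mean of all probes, 16 with an intensity trend, 2 with the arrays of those groups alone (Pdia5 and Sec13), 4 with array weights, and 20 and 1 at thresholds of 0.1 and 0.01. All genes gave 1821 when both groups had to be above background, 1264 with those arrays alone, 1142 with array weights, and 4751 and 710 at those thresholds. The further lists gave 21 with normexp, 7 with no filter, 3 with those arrays alone, 4 with array weights, and 25 and 2 at those thresholds. Of all genes called, 53.5% were higher in the main scaling, 46.7% with quantile normalization, 64.6% with median centring and 25.4% with the authors' deposited table.

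In myofibroblasts over homogenates the 46 genes gave 14 with quantile normalization, 16 with the authors' table and 9 at 0.01. All genes gave 2760 with both groups above background, 7391 with those arrays alone, 7793 with array weights and 2073 at 0.01, and the further lists gave 56, 55 and 13 under the last 3. In fibroblasts over homogenates the 46 genes gave 4 with those arrays alone, 12 with a trend, and 11 and 1 at 0.1 and 0.01. All genes gave 1834 with both groups above background and 1725 at 0.01, and the further lists gave 8 with those arrays alone and 28 and 6 at the thresholds.

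Same-numbered samples did not pair, with correlations of their deviations of 0.07, -0.01 and 0.04 over 13998 genes. With the replicate number as a block the 46 genes gave 7, 21 and 6 calls, all genes 2227, 4044 and 3219, and the further lists 9, 30 and 10. Ddit3 between fibroblasts and homogenates turned to -1.16 (adjusted p = 0.0434) without fibroblast array 2. It was 1.28 without fibroblast array 1 and 0.06 with both, and its fibroblast arrays differed over 2-fold. P4hb in the same comparison turned to -0.92 (adjusted p = 0.0355) without fibroblast array 2, and was 0.93 without fibroblast array 1 and 0.00 with both. No other difference of the 46 genes or of the 13 further genes called between the sorted groups turned with a call on either side. The cause of the other changes was not tested. All 46 genes were well above background on all 6 arrays.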
